A study of Mus musculus with 9 samples.

Results

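The genes described here are 29 genes of cholesterol synthesis, sterol sensing, transport inside the cell and export. They were chosen by name, with earlier results of these data known, and all are present among the 15109 genes of the deposited count table. They comprise 19 enzymes from acetyl-CoA to cholesterol, 5 genes that control the sterol-sensing transcription factors SREBP, 3 carriers that move sterol within the cell, and the 2 exporters Abca1 and Abcg1. All were measured by messenger RNA sequencing of wild-type mast cells grown from C57BL/6 bone marrow for at least 4 weeks with medium conditioned by WEHI-3 cells. In the Control group the cells were untreated (3 libraries), in the BSA group they were sensitised with IgE against dinitrophenyl and given the antigen DNP-BSA (3 libraries), and in the Taxinine group they were sensitised, exposed to taxinine, a taxane diterpenoid of yew, for 1 h and then given the antigen (3 libraries). The amount of taxinine, its vehicle and the time with antigen are not stated, and there is no group with taxinine alone. Nor is there a group with IgE alone. Changes in BSA against Control, called changes with antigen below, therefore cannot be told apart from those of IgE. Likewise, changes in Taxinine against BSA, called changes with taxinine below, cannot be told apart from those of a vehicle. Where antigen or taxinine is said below to raise or lower genes, only the direction in these comparisons is meant. The libraries of a group are called biological replicates without naming separate animals or cultures, so p-values measure the spread between these libraries, which may be technical.

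Cholesterol is built from acetyl-CoA through mevalonate, isoprenoid diphosphates, squalene and lanosterol. SREBP-2 and SREBP-1, encoded by Srebf2 and Srebf1, are made as membrane proteins of the endoplasmic reticulum; when sterol is scarce, SCAP carries them to the Golgi, where they are cut and released to the nucleus, and INSIG proteins hold the complex back when sterol is plentiful. Liver X receptors, which bind oxidised sterols, drive transcription of the exporters. In mast cells the high-affinity IgE receptor associates with cholesterol-rich membrane when it is cross-linked.

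Total counts ran from 8975371 in Taxinine replicate 1 to 14116976 in Control replicate 2. Levels are CPM, counts relative to the library total after scaling by trimmed mean of M values (TMM), and mean values carry the SD over 3 libraries. Summed over 12 mast cell markers the level was 44863 to 45854 in Control, while the BSA libraries had 47978 to 49388 and the Taxinine libraries 47923 to 48821. Macrophages, in which the exporters are also active, were represented by 11 of 12 markers at a sum of 75.6 to 78.4, 89.7 to 98.9 and 80.4 to 85.1, most of it from Adgre1 (42.7 to 53.2 over all libraries), Lyz2 and Cd68 (13.2 to 17.2). Lyz2 rose from 13.9 to 15.4 in Control to 19.7 to 22.9 in BSA and fell to 13.7 to 16.5 in Taxinine. With antigen Adgre1, Lyz2 and Cd14 were called higher and Fcgr1 lower (3 and 1 of 11), and with taxinine Lyz2 alone was called, lower. Csf1r was at most 1.27 and C1qb and C1qc at most 0.394 in any library. The part of these markers in the results below was not tested. Basophil markers, 2 of 2 in the table, summed to 534 to 591, 602 to 626 and 541 to 565, dendritic cell markers (4 of 5) to 41.3 to 50.7 over all libraries and erythroid markers (2 of 6) to 31.9 to 40.6. The neutrophil (1 of 8), B cell (2 of 5) and T cell (1 of 4) markers in the table summed to at most 2.28 in any library.

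With antigen, the share of the 29 genes called was close to that of all genes. In BSA against Control 5 were called higher, 5 lower and 19 not called (edgeR's quasi-likelihood test, adjusted p under 0.05 over all genes), so that 34.5% were called against 34.0% of all genes. With genes of low count removed (filterByExpr), the split was again 5 and 5, while 40.9% of the remaining genes were called. The enzyme genes Cyp51, Hmgcs1 and Sqle, the factor Srebf2 and the carrier Stard4 rose, and Acat2, Lss, Ggps1, Insig2 and Abcg1 fell. The direction of Sqle, Srebf2 and Stard4 depended on the scaling between libraries: with library totals alone the median of all genes moved from -0.00 to -0.23 on the log2 scale, the split became 2 higher and 14 lower, and these 3 genes were at -0.04, -0.02 and -0.02. Cyp51 and Hmgcs1 were higher, and the 5 fallers lower, under each scaling tried. Median log2 fold change was 0.02 over the 29 genes and -0.00 over all genes. In these bulk samples, fewer cells of a type and less RNA per cell cannot be told apart.

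Both exporters were lower in Taxinine than in BSA, and a few genes of synthesis, sensing and transport were higher. Against BSA, 6 of the 29 genes were called (20.7%, against 6.98% of all genes): Abca1 and Abcg1 lower, and Acat2, Msmo1, Insig1 and Stard4 higher. The share of all genes called higher was 2.86% and lower 4.12%. With genes of low count removed (filterByExpr), 8.80% of 12537 genes were called, and the split was again 4 higher and 2 lower. The 29 genes were chosen with earlier results of these data known, so these shares only describe the list. The falls of Abca1 and Abcg1 held in each of 16 alternative settings, whereas each of the 4 rises lost its call without at least 2 of the libraries. The number of rises was 2 without BSA replicate 1, 1 without BSA replicate 3, and 1, 2 and 1 without Taxinine replicates 1, 2 and 3. Median log2 fold change was 0.06 for the 29 genes and 0.00 for all genes, and the split of 4 higher and 2 lower was the same with library totals alone. Groups did not overlap in 11 genes between BSA and Control (42.9% of all genes did not) and in 10 between Taxinine and BSA (23.9% of all genes).

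**Figure D1:**
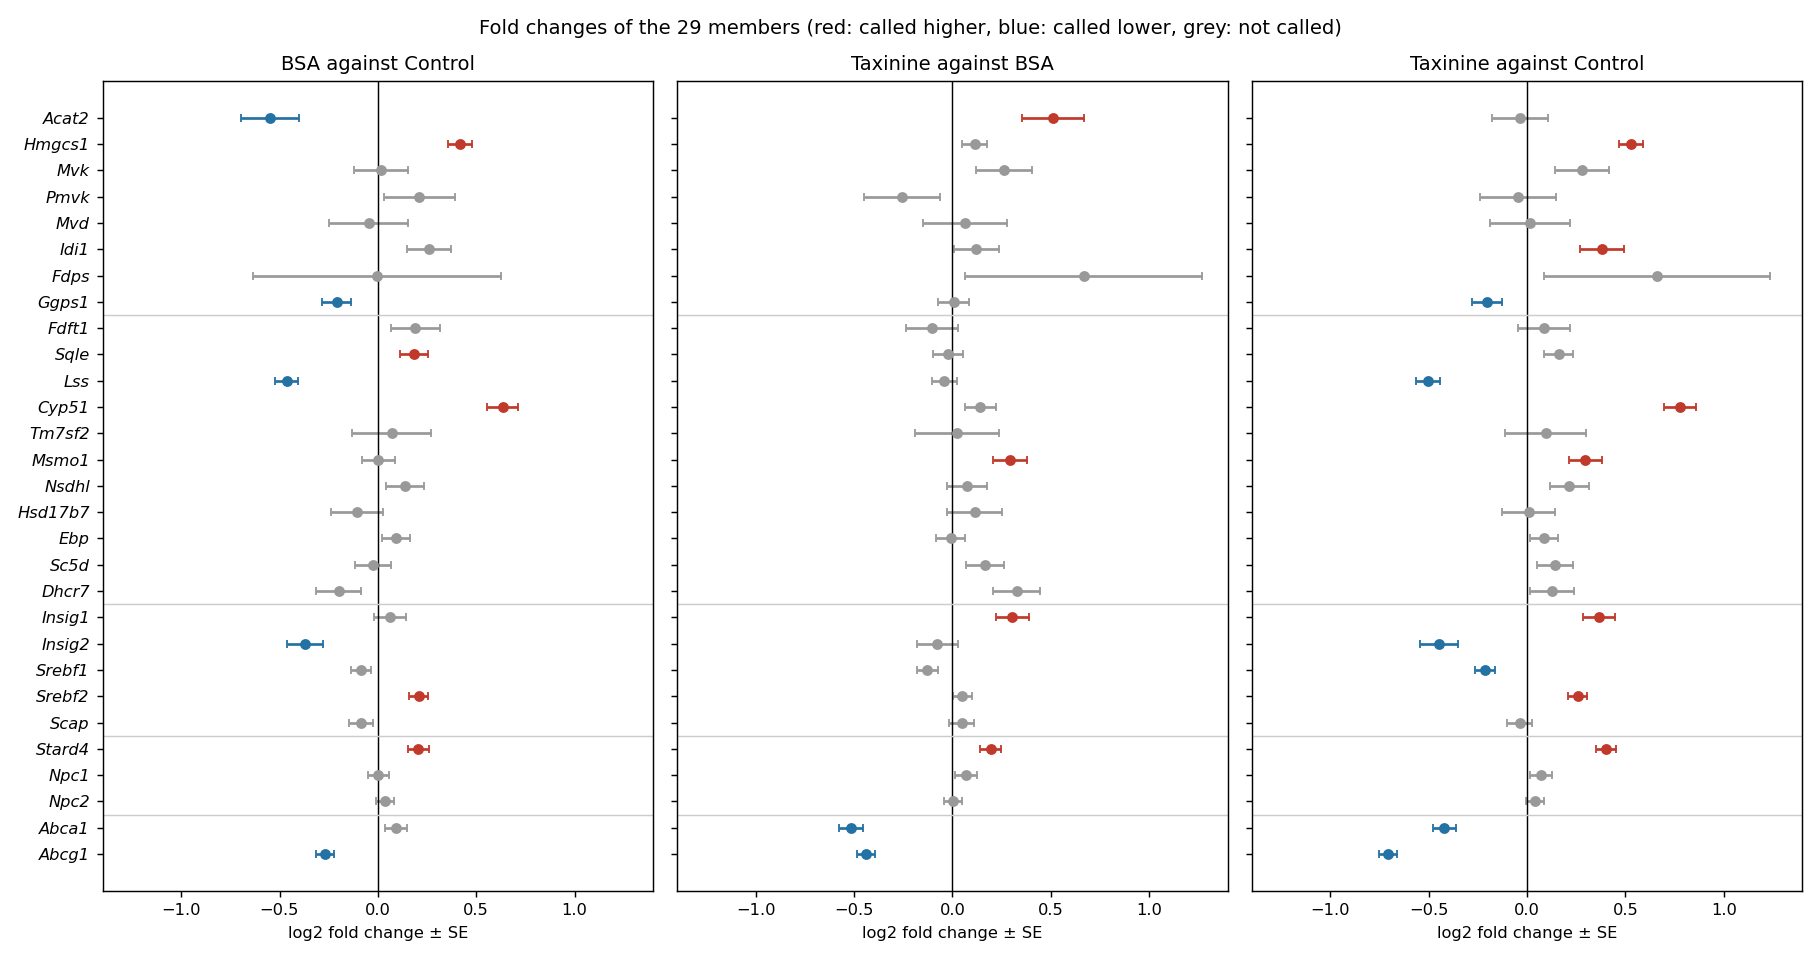
Log2 fold change (horizontal axis, log2 units) with its SE for each of the 29 genes in BSA against Control, Taxinine against BSA and Taxinine against Control, ordered by role from the first enzyme to the exporters; red points were called higher, blue lower and grey not called. Abca1 and Abcg1 sit at -0.51 and -0.44 in Taxinine against BSA, while Cyp51 at 0.63 and Acat2 at -0.55 are the extremes in BSA against Control; Sqle, Srebf2 and Stard4 changed sign in BSA against Control with library totals alone.

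Levels between genes can be compared only per length, here as CPM per kilobase of annotated exon. The length joins the exons of all annotated transcripts of a gene and can exceed that of its main transcript, so the order depends on the annotation. In Control the highest were Npc2, which binds cholesterol inside lysosomes, at 32.6 ± 0.766 and Abcg1 at 31.5 ± 0.590, and their 3 libraries did not overlap. Srebf1 followed at 24.2 ± 1.31, Srebf2 at 15.7 ± 0.566 and the sterol isomerase gene Ebp at 13.5 ± 0.388, whose libraries overlapped those of Stard4 at 12.9 ± 0.255. The enzyme genes other than Ebp were at or below the 7.99 ± 0.226 of Hmgcs1. Abcg1 was at 19.2 ± 0.103 and Npc2 at 33.6 ± 0.687 in Taxinine, so that the exporter stood behind Srebf1 (20.9 ± 0.564) there and overlapped with Srebf2 (18.7 ± 0.608). The lowest was Fdps, at 0.0773 ± 0.0146 in Control. Of the distinct 101-base stretches in its annotated transcripts, 21.3% also occur in other genes, so this level is uncertain.

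**Figure D2:**
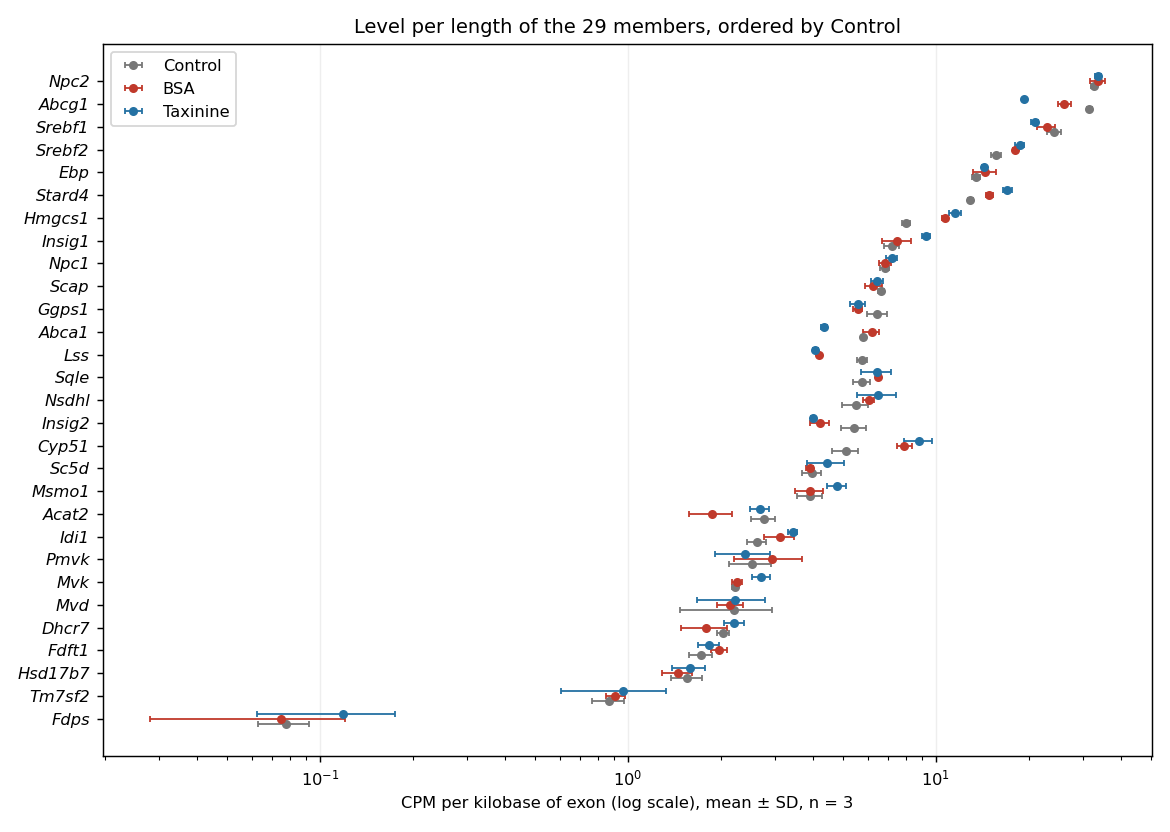
Level per length (CPM per kilobase of exon, log axis) of the 29 genes, ordered by the Control mean, with mean and SD of 3 libraries per group. The values span from 0.0773 for Fdps to 32.6 for Npc2 in Control, and Abcg1 drops from 31.5 to 26.1 in BSA and 19.2 in Taxinine.

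The mevalonate segment opens with Acat2, the cytosolic thiolase that joins acetyl-CoA units (GRCm38 chromosome 17, 12942890 to 12960747). Its level was 6.87, 6.46 and 7.72 CPM in Control replicates 1 to 3, then 4.40, 5.67 and 4.27 with antigen and 7.06, 6.27 and 7.18 with taxinine. The BSA libraries lay below all libraries of both other groups. Log2 fold change was -0.55 ± 0.15 (SE) in BSA against Control (adjusted p = 0.00289 by edgeR's quasi-likelihood test) and 0.51 ± 0.16 in Taxinine against BSA (adjusted p = 0.0377). The rise missed the threshold without BSA replicate 1 (0.45; adjusted p = 0.151) or 3 (0.44; 0.149), without Taxinine replicate 1 (0.50; 0.107), 2 (0.57; 0.0565) or 3 (0.47; 0.154), and with DESeq2 (0.51; 0.0959). Of the distinct 101-base stretches in annotated Acat2 transcripts, 28.7% also occur in Acat3 or Tcp1 transcripts, so its counts are less certain. Acat3 was at most 0.665 CPM in any library, and Tcp1 rose from 178 to 197 in BSA, with 202 in Taxinine.

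Hmgcs1, the synthase that makes HMG-CoA (chromosome 13, 119690379 to 119708260), was at 37.0, 35.6 and 37.6 CPM in Control. In BSA it was at 48.1, 49.9 and 48.9, and in Taxinine at 53.7, 55.0 and 50.5. All activated libraries exceeded all Control libraries, and the Taxinine libraries also lay above those of BSA. The rise with antigen was 0.42 ± 0.06 on the log2 scale (edgeR, adjusted p = 4.54e-07; 0.19 with 0.00931 for library totals alone), while the difference between Taxinine and BSA, 0.11 ± 0.06 (95% interval -0.01 to 0.24), missed the threshold (adjusted p = 0.315). Of its 101-base stretches, 8.16% also occur in Gm48342 or Rasgrp2, the former an antisense transcript not analysed here and the latter at most 0.896 CPM. Ggps1 makes geranylgeranyl diphosphate, the lipid attached to many small GTPases. Its values were 33.0, 28.7 and 29.6 in Control, then 26.9, 26.8 and 25.2 with antigen alone and 25.8, 25.1 and 28.0 with taxinine. The Control libraries were the highest, and the activated groups overlapped. It fell by 0.21 on the log2 scale (SE 0.07) in BSA (edgeR, adjusted p = 0.0261; -0.44 with library totals alone), a call lost when Control replicate 1 (-0.15; adjusted p = 0.178) or BSA replicate 3 (-0.18; 0.0944) was left out and with DESeq2 (-0.20; 0.0933). Arid4b or Gm5630 shares 3.85% of its stretches, and Arid4b gave 0.00 ± 0.06 with antigen.

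The remaining genes of this segment were not called in BSA against Control or Taxinine against BSA. They were Mvk and Pmvk, the kinases of mevalonate and phosphomevalonate, Mvd, the decarboxylase that follows, Idi1, the isomerase of isopentenyl diphosphate, and Fdps, which makes farnesyl diphosphate. Idi1 was at 9.12, 9.85 and 8.57 CPM in Control, 12.1, 11.1 and 9.64 in BSA, then 12.3, 12.2 and 11.6 in Taxinine. Its log2 fold change in BSA was 0.26 ± 0.11 (edgeR, adjusted p = 0.0718, and 0.34 with 0.0296 without BSA replicate 3), and against Control the Taxinine libraries were higher by 0.38 ± 0.11 (adjusted p = 0.00764). That call was lost with library totals alone (0.18; adjusted p = 0.201). Mvk gave 6.03 ± 0.224 in BSA and 7.24 ± 0.487 in Taxinine without overlap, a difference of 0.26 ± 0.14 (adjusted p = 0.307). Pmvk and Mvd were at 3.33 to 6.18 and 2.78 to 5.50 CPM over the 9 libraries, with groups that overlapped.

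Cyp51, the demethylase of lanosterol (chromosome 5, 4081145 to 4104746), showed the largest rise of the 29 genes in BSA against Control. Control libraries had 22.9, 20.2 and 24.5 CPM, BSA libraries 36.7, 35.0 and 32.9, and Taxinine libraries 43.4, 35.6 and 37.4. Control and activated libraries were far apart, and BSA and Taxinine overlapped. Log2 fold change was 0.63 ± 0.08 in BSA (edgeR, adjusted p = 1.3e-08) and 0.14 ± 0.08 between Taxinine and BSA (95% interval -0.01 to 0.30; adjusted p = 0.313). With library totals alone the rise in BSA was smaller, at 0.41. Akap9 on the opposite strand shares 1.48% of its stretches and gave 0.15 ± 0.07 in BSA against Control (adjusted p = 0.0846) and 0.32 ± 0.07 in Taxinine against Control (0.000174). Lss, the cyclase that makes the lanosterol on which CYP51 acts (chromosome 10, 76531588 to 76557138), moved the other way. It was at 64.1, 59.6 and 62.4 in Control, 44.8, 44.9 and 45.3 in BSA, then 44.4, 42.8 and 44.0 in Taxinine. All 6 activated libraries lay below the 3 Control libraries. The fall was 0.46 on the log2 scale with an SE of 0.06 (edgeR, adjusted p = 9.87e-09), and the Taxinine libraries differed from BSA by -0.04 ± 0.06.

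Within a library the ratio of Cyp51 to Lss counts does not depend on how libraries are scaled, and it shows unequal change of the pair rather than the change of either. It was 0.357, 0.338 and 0.393 in Control, 0.820, 0.779 and 0.727 in BSA, then 0.977, 0.833 and 0.849 in Taxinine. These and the other ratios given here were chosen after the values were seen. The ratio of Hmgcs1 to Lss was 0.592 ± 0.0138 in Control, 1.09 ± 0.0193 in BSA and 1.21 ± 0.0706 in Taxinine. Both ratios were higher in every activated library than in every Control library.

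The upstream sequences of Hmgcs1 and Cyp51 are shown because these were the 2 rises with antigen that kept their call in all 16 alternatives. They are the 250 bases before the RefSeq transcription start (GRCm38.p6, 5′ to 3′ on the gene's strand), at chr13:119690101-119690350 on the plus strand and chr5:4104698-4104947 on the minus strand. Capitals mark CCAAT, the box bound by NF-Y, a partner of SREBP, and TCACNCCAC, letters of a sterol regulatory element, in either orientation (ATTGG is CCAAT on the opposite strand).
Hmgcs1: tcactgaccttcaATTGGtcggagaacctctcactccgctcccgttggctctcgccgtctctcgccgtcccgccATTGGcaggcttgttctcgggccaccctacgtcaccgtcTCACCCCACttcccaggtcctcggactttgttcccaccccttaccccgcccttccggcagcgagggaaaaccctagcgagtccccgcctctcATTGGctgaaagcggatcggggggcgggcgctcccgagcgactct
Cyp51: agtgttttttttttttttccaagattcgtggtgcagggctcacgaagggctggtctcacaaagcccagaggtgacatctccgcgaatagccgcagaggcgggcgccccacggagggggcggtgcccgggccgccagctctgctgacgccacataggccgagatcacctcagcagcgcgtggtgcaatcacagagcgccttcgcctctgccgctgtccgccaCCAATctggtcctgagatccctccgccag
Hmgcs1 carries 3 CCAAT boxes in these bases and the only TCACNCCAC match among the 23 genes with a RefSeq window, beginning 137 bases before the start. Cyp51 has a CCAAT box 29 bases before its start.

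Sqle, the epoxidase of squalene, was at 30.2, 34.0 and 31.2 CPM in Control, 36.9, 35.5 and 35.8 in BSA, then 39.6, 31.7 and 35.9 in Taxinine. Taxinine libraries spanned both other groups. Its rise of 0.18 ± 0.07 in BSA lay at the threshold (edgeR, adjusted p = 0.0466). It was lost without Control replicate 1 (0.15; adjusted p = 0.161) or 3 (0.17; 0.130), without BSA replicate 1 (0.17; 0.137), 2 (0.19; 0.0635) or 3 (0.19; 0.0732), without Taxinine replicate 3 (0.18; 0.0546) and with DESeq2 (0.19; 0.0900). Msmo1, the methyl sterol oxidase that acts after CYP51 (chromosome 8, 64718139 to 64733792), was the one enzyme of the sterol segment called between Taxinine and BSA. Its level was 26.5, 22.3 and 23.2 in Control, 23.7, 26.6 and 21.6 in BSA, then 29.4, 27.3 and 31.4 in Taxinine. Each Taxinine library exceeded each library of the other groups, which overlapped. The rise against BSA was 0.29 ± 0.09 (edgeR, adjusted p = 0.0279). It missed the threshold without BSA replicate 1 (0.28; adjusted p = 0.0916) or 3 (0.23; 0.166), without Taxinine replicate 1 (0.30; 0.0759) or 3 (0.23; 0.200), and with DESeq2 (0.29; 0.0675).

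Dhcr7, the reductase of the last step in one branch, was at 8.35, 11.3 and 11.5 CPM in BSA, then 12.0, 12.6 and 13.9 in Taxinine. The groups did not overlap, and the difference of 0.33 ± 0.12 (95% interval 0.09 to 0.57) missed the threshold (edgeR, adjusted p = 0.0914). Of the 11 genes from squalene synthase to DHCR7, 8 were not called with antigen and 10 not with taxinine. These include Fdft1, the squalene synthase, Tm7sf2, a sterol reductase, Nsdhl and Hsd17b7, which remove a methyl group with MSMO1, Ebp, and Sc5d, a desaturase. Fdft1 was at 6.68 to 7.92 in Control and 8.05 to 8.91 in BSA without overlap, at 0.19 ± 0.13 (adjusted p = 0.262). The exons of Ctsb, an abundant protease gene on the opposite strand, cover 18.3% of Fdft1's exon bases, and the strand setting of the counting is not stated. Ctsb was at 174 in Control and 186 in BSA and was not called. Over all 9 libraries Tm7sf2 was at 2.42 to 5.23 CPM, Hsd17b7 at 6.86 to 9.14, Nsdhl at 14.3 to 21.2, Sc5d at 17.6 to 24.5 and Ebp at 30.4 to 36.6, with groups that overlapped in both comparisons. With library totals alone Hsd17b7 (-0.33), Sc5d (-0.25) and Dhcr7 (-0.43) were called lower in BSA than in Control.

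**Figure D3:**
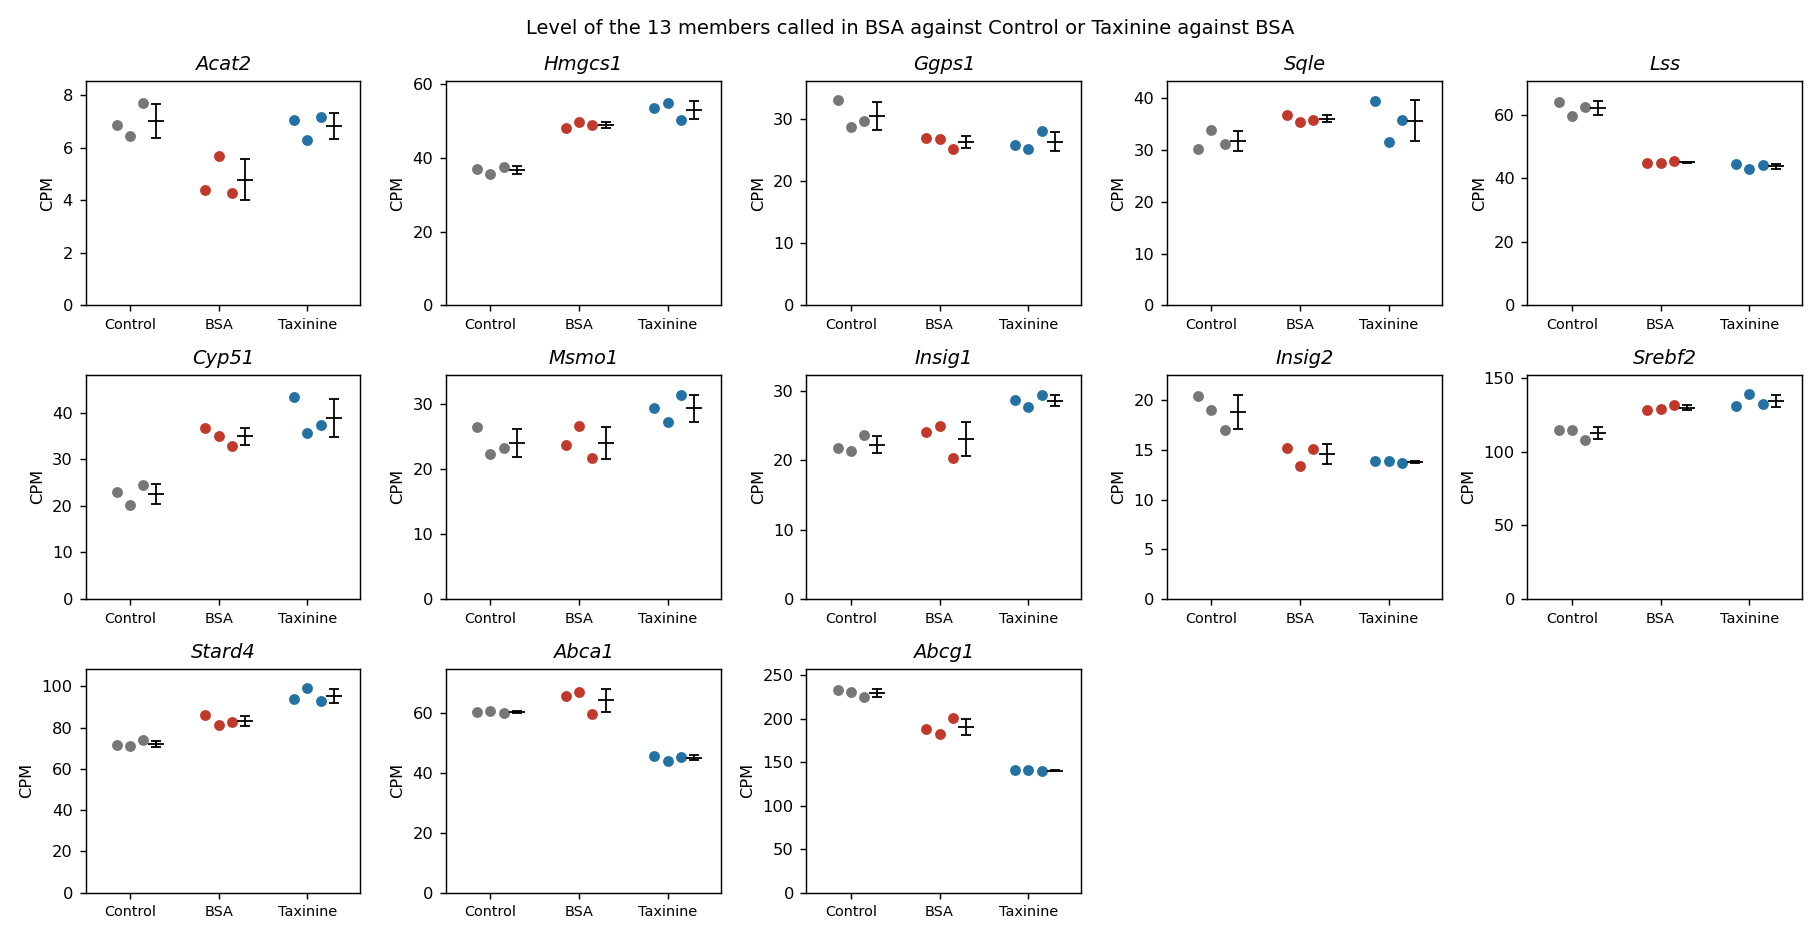
Level (CPM, axis from 0) in each of the 9 libraries of the 13 genes called in BSA against Control or in Taxinine against BSA; each point is a library, and the black mark beside it is the mean ± SD of 3. Abcg1 steps down from Control (225 to 233) through BSA (183 to 201) to Taxinine (139.6 to 141), and Stard4 steps up, though its rise with antigen had the opposite sign with library totals alone, as had those of Sqle and Srebf2.

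Among the genes that control SREBP, the pair of INSIG genes gave different calls. Insig1, itself a classical SREBP target (chromosome 5, 28071363 to 28078662), was at 21.7, 21.4 and 23.7 CPM in Control, 24.1, 25.0 and 20.4 in BSA, then 28.7, 27.8 and 29.5 in Taxinine. Control and BSA overlapped, and the Taxinine libraries were the 3 highest. It rose by 0.30 ± 0.08 in Taxinine against BSA (edgeR, adjusted p = 0.0171) and by 0.37 ± 0.08 against Control (adjusted p = 0.000373), while BSA against Control gave 0.06 ± 0.08. The call against BSA was lost without BSA replicate 3 (0.23; adjusted p = 0.140), Taxinine replicate 1 (0.30; 0.0536) or 3 (0.28; 0.0959). The call against Control was lost with library totals alone (0.16; adjusted p = 0.0948). Insig2, which is less dependent on SREBP (chromosome 1, 121304353 to 121332589), was at 20.4, 19.1 and 17.0 in Control, 15.3, 13.4 and 15.1 in BSA, then 13.9, 13.9 and 13.7 in Taxinine. Control lay above both activated groups, which overlapped. It fell by 0.37 with an SE of 0.09 in BSA (edgeR, adjusted p = 0.00148; -0.60 with library totals alone) and differed by -0.08 ± 0.10 between Taxinine and BSA. The ratio of Insig1 to Insig2 counts was 1.07, 1.12 and 1.39 in Control, 1.58, 1.87 and 1.35 in BSA, then 2.07, 2.00 and 2.16 in Taxinine. Taxinine libraries stood above all others, and Control and BSA overlapped.

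Srebf2, the SREBP gene tied mainly to cholesterol synthesis (chromosome 15, 82147181 to 82205379), was at 115, 115 and 108 CPM in Control, 129, 129 and 132 in BSA, then 131, 139 and 133 in Taxinine. Activated libraries all exceeded Control. Its rise in BSA was 0.21 ± 0.05 (edgeR, adjusted p = 0.00048), but -0.02 with library totals alone. Srebf1, tied mainly to fatty acid synthesis, had 131, 145 and 134 in Control, 119, 134 and 133 in BSA, then 118, 121 and 114 in Taxinine. It overlapped between BSA and both other groups. Neither BSA against Control (-0.08 ± 0.05) nor Taxinine against BSA (-0.13 ± 0.05; edgeR, adjusted p = 0.146) was called, although the latter was at -0.18 with an adjusted p of 0.0394 without BSA replicate 1. With library totals alone Srebf1 was called lower in BSA than in Control, at -0.31 (edgeR, adjusted p = 2.26e-06). Taxinine against Control was lower at -0.21 ± 0.05 (adjusted p = 0.00105; -0.42 with library totals alone) and stayed called in 16 of 16 alternatives. Its exons share 109 bases with those of Rai1 on the opposite strand, which was at 134 in Control, 141 in BSA and 114 in Taxinine and was called lower in Taxinine against BSA (adjusted p = 3.14e-05). What part Rai1 reads have in the Srebf1 counts was not tested. The ratio of Srebf2 to Srebf1 counts was 0.826 ± 0.0440 in Control, 1.01 ± 0.0623 in BSA and 1.14 ± 0.0301 in Taxinine. No library of a group overlapped with those of another. Scap, the escort of both factors, stayed between 44.5 and 50.6 in all libraries and was called in none of the 3 comparisons. With library totals alone, however, edgeR called it lower than Control both in BSA (-0.31, adjusted p = 3.84e-05) and in Taxinine (-0.24, adjusted p = 0.00133).

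The upstream sequences of Insig1 and Msmo1 are given as those of the genes called higher with taxinine that have a RefSeq window and share no stretch with other genes. They lie at chr5:28071162-28071411 on the plus strand and chr8:64733579-64733828 on the minus strand (GRCm38.p6, 250 bases before the start, 5′ to 3′). Capitals mark CCAAT in either orientation and the E-box CACGTG, which reads the same on both strands.
Insig1: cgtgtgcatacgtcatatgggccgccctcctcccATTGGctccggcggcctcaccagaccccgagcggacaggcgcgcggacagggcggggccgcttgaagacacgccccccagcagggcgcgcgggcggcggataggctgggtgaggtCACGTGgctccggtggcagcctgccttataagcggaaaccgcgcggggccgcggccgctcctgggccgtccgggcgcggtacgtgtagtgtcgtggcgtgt
Msmo1: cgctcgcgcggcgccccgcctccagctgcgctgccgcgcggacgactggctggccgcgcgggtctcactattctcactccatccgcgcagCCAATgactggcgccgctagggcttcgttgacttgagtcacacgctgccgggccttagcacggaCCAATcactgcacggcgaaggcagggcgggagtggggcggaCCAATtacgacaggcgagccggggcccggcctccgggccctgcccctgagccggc
Msmo1 holds 3 CCAAT boxes, and Insig1 holds 1 together with an E-box 101 bases before the start. In windows of 300 bases (250 before the start to 50 after), 20 of the 23 genes with a window held CCAAT on either strand (87.0%), against 42.7% of the 10592 genes of the count table with a window. For CACGTG the figures were 6 of 23 (26.1%) and 11.5%, and for TCACNCCAC 1 of 23 (4.35%) and 1.39%; no 2 of these matches overlapped in the sequences printed here. Acat2, also called higher with taxinine, has a window that holds none of these motifs. Lss, Insig2 and Ggps1, called lower with antigen, each hold CCAAT. A match is a description of letters and not a binding site.

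Of the carriers, only Stard4 was called. STARD4 moves cholesterol between membranes through the cytosol, and its gene is a known SREBP-2 target (chromosome 18, 33199355 to 33213862). It was at 71.5, 71.3 and 73.9 CPM in Control, 85.9, 81.2 and 82.8 in BSA, then 93.8, 99.1 and 93.1 in Taxinine. The 3 groups did not overlap and rose in this order. Log2 fold change was 0.21 ± 0.05 in BSA (edgeR, adjusted p = 0.00148; -0.02 with library totals alone) and 0.19 ± 0.05 in Taxinine against BSA (adjusted p = 0.0153). The latter was lost without BSA replicate 2 (0.18; adjusted p = 0.0538) or Taxinine replicate 2 (0.17; 0.122). Against Control the Taxinine libraries were higher by 0.40 ± 0.05 (adjusted p = 3.12e-08; 0.20 with library totals alone), a call kept in 16 of 16 alternatives. Npc1 and Npc2, which pass cholesterol out of lysosomes, were at 74.3 to 84.4 and 171 to 188 CPM over the 9 libraries, with groups that overlapped. Their differences lay between 0.00 and 0.07 on the log2 scale in all 3 comparisons, but with library totals alone both were called lower in BSA than in Control (-0.22 and -0.19).

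Abcg1 and Abca1 encode transporters of the ABC family that hand cholesterol to lipoproteins, ABCA1 to lipid-poor apolipoprotein and ABCG1 to mature particles. Abcg1 (chromosome 17, 31057675 to 31117988) was at 233, 230.5 and 225 CPM in Control, 189, 183 and 201 in BSA, then 141, 141 and 139.6 in Taxinine. The 3 groups were separate, with Control highest and Taxinine lowest. It fell by 0.27 on the log2 scale (SE 0.04) with antigen (edgeR, adjusted p = 3.09e-06; -0.50 with library totals alone) and by 0.44 (SE 0.05) in Taxinine against BSA (adjusted p = 3.11e-09). Against Control the Taxinine libraries were at -0.71 ± 0.05 (adjusted p = 4.04e-17), or 0.612-fold. Over the 16 alternatives the fall against BSA ran from -0.47 to -0.40.

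Abca1 (chromosome 4, 53030787 to 53159895) was at 60.1, 60.4 and 59.8 CPM in Control, 65.4, 67.0 and 59.7 in BSA, then 45.6, 43.9 and 45.3 in Taxinine. Control and BSA overlapped, and each Taxinine library lay below each library of the other groups. It fell by 0.51 (SE 0.06) in Taxinine against BSA (edgeR, adjusted p = 5.91e-08; -0.56 to -0.47 over the 16 alternatives). In BSA against Control the difference was 0.09 ± 0.06 and not called, and it was called lower with library totals alone (-0.13; adjusted p = 0.0432). The transcripts of neither exporter share a 101-base stretch with another gene. The upstream sequence of Abca1 (chr4:53159896-53160145, minus strand, GRCm38.p6, 5′ to 3′) is shown because it is the exporter with a RefSeq window. Its CACGTG is in capitals.
Abca1: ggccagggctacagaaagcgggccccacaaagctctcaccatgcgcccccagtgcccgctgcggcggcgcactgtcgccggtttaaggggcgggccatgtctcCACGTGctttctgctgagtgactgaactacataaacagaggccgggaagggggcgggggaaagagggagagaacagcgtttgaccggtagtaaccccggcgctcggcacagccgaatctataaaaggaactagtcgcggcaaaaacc
The E-box starts 147 bases before the start, and the window holds no CCAAT and no TCACNCCAC.

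The ratio of Stard4 to Abcg1 counts was 0.306, 0.309 and 0.328 in Control, 0.455, 0.444 and 0.413 in BSA, then 0.666, 0.703 and 0.667 in Taxinine. The groups were separate. For Insig1 to Abcg1 the ratio was 0.0971 ± 0.00712 in Control, 0.122 ± 0.0182 in BSA and 0.204 ± 0.00701 in Taxinine, with Control and BSA overlapping.

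**Figure D4:**
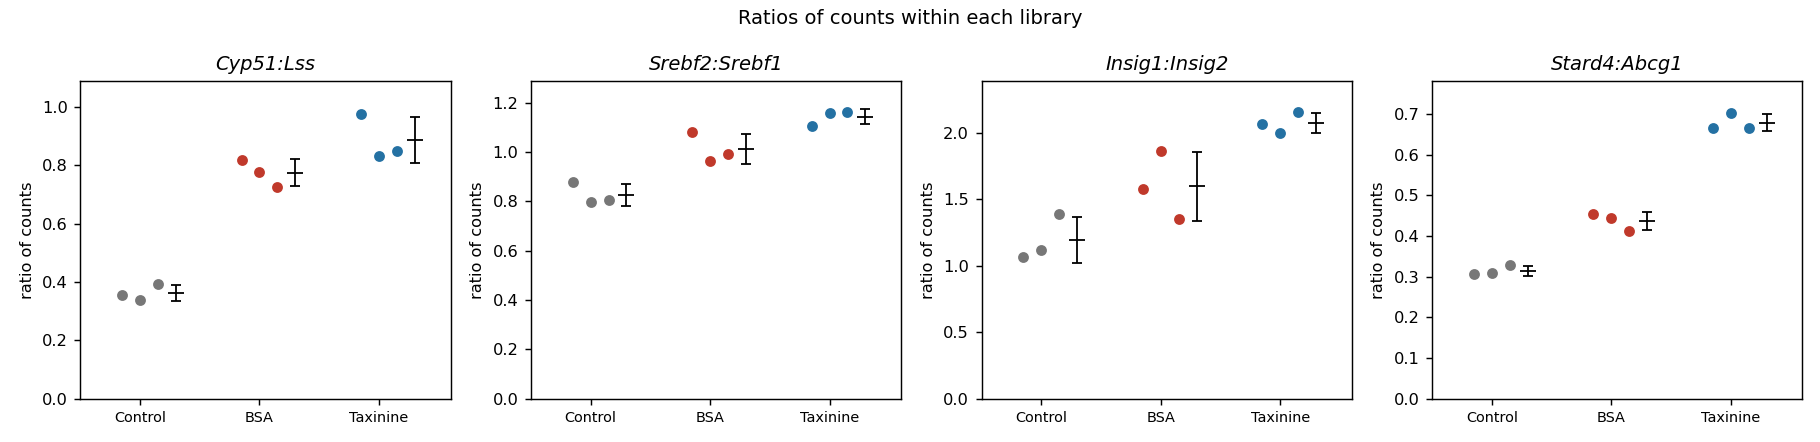
Ratio of read counts of 2 genes within each library (vertical axis from 0, no unit; points are libraries, black marks mean ± SD of 3). Cyp51:Lss separates Control (0.338 to 0.393) from the activated libraries (0.727 to 0.977), and Stard4:Abcg1 separates all 3 groups.

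The comparison of Taxinine with Control shares its libraries with both comparisons above. In it 7 of the 29 genes were called higher and 6 lower, 44.8% against 33.1% of all genes, and the groups did not overlap in 15 genes (43.7% of all genes). Those higher were Hmgcs1, Idi1, Cyp51, Msmo1, Insig1, Srebf2 and Stard4, and those lower were Ggps1, Lss, Insig2, Srebf1, Abca1 and Abcg1. With library totals alone 3 were higher and 9 lower. With filterByExpr the split was again 7 and 6, while 40.1% of the remaining genes were called. The calls of Hmgcs1, Cyp51, Stard4, Lss, Insig2, Srebf1, Abca1 and Abcg1 held in all 16 alternatives. Ggps1 lost its call without Control replicate 1 (-0.14; edgeR, adjusted p = 0.209) or Taxinine replicate 1 (-0.19; 0.103) or 2 (-0.17; 0.153), and Msmo1 without Taxinine replicate 3 (0.24; 0.0663). DESeq2 did not call Ggps1 either (-0.20; adjusted p = 0.101). The calls of Msmo1 (0.10; adjusted p = 0.372) and Srebf2 (0.06; 0.359), like those of Idi1 and Insig1, were lost with library totals alone and with limma on the deposited log2 values, and Hmgcs1 was then at 0.33 and Ggps1 at -0.41 with library totals. Cyp51 was at 0.78 ± 0.08, Hmgcs1 at 0.53 ± 0.06 and Lss at -0.50 ± 0.06.

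Wider lists of the same biology were described by counts. They were not examined with library totals alone, where the median of all genes in BSA against Control moved to -0.23. Rises, falls and splits with antigen in all these lists may therefore depend on the scaling. Of 15 genes for SREBP processing, sterol-regulated protein degradation and cofactors, antigen raised 1 and lowered 4 (33.3% called, against 34.0% of all genes), and taxinine raised 2 (13.3%, against 6.98%). Syvn1, a ubiquitin ligase of the endoplasmic reticulum, rose from 81.8 ± 2.43 to 143 ± 13.3 CPM (log2 0.81 ± 0.05), and the ligase gene Rnf145 fell (-0.27 ± 0.05). Taxinine raised Syvn1 further, to 177 ± 5.61 (0.30 ± 0.05 against BSA), and Nfya, a subunit of NF-Y (0.17 ± 0.05). The proteases of SREBP, Mbtps1 and Mbtps2, were among those not called in either comparison. Among 21 genes of fatty acid synthesis and SREBP-1 targets, antigen raised 4 and lowered 4 (38.1%, near the 34.0% of all genes). They included Acly, which makes cytosolic acetyl-CoA (0.27 ± 0.04), the desaturase Scd2 (-0.24 ± 0.04) and Pcyt2 of phospholipid synthesis (-0.48 ± 0.07). In Taxinine against BSA, Fasn, the fatty acid synthase, rose from 196 ± 8.35 to 240 ± 3.50 (0.29 ± 0.04), the acetoacetyl-CoA synthetase gene Aacs rose (0.31 ± 0.08), and Scd2 fell from 460 ± 6.03 to 373 ± 3.96 (-0.30 ± 0.04). These were the 3 called of that list (14.3%).

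Of 9 measured liver X receptor genes and targets, antigen raised 2 and lowered 2 (44.4%, against 34.0% of all genes), and taxinine lowered 1 (11.1%, against 6.98%). Arl4c, a small GTPase gene regulated by liver X receptors, rose from 295 ± 3.04 to 491 ± 7.94 CPM with antigen (0.74 ± 0.04) and fell to 429 ± 17.4 in Taxinine (-0.20 ± 0.04). The receptor gene Nr1h2 rose with antigen (0.27 ± 0.05) and Abca7, a relative of Abca1, fell (-0.16 ± 0.05). Mylip, a ubiquitin ligase gene driven by liver X receptors, was at 92.7 ± 2.08 in BSA and 103 ± 0.805 in Taxinine, a difference of 0.15 ± 0.05 that missed the threshold (edgeR, adjusted p = 0.0717), and Lpcat3, a lysophospholipid acyltransferase gene, gave -0.08 ± 0.06. Of 23 measured genes for sterol storage, transfer and receptors, antigen raised 5 and lowered 5 (43.5%, against 34.0% of all genes). Lamp2, a lysosomal membrane protein, rose (0.45 ± 0.04), and Osbpl5, an oxysterol-binding protein relative (-0.80 ± 0.05), and the sterol transfer gene Gramd1c (-0.94 ± 0.12) fell. Taxinine lowered Gramd1a (-0.21 ± 0.06) and raised Osbpl11 (0.25 ± 0.07) and Osbp (0.17 ± 0.05), 3 of 23 against 6.98% of all genes. Of 19 measured genes of isoprenoid branches and electron donors, antigen lowered 3 (15.8%, against 34.0% of all genes), namely Trit1 (-0.60 ± 0.10), Fnta, a prenyltransferase subunit (-0.36 ± 0.07), and Coq2 of ubiquinone synthesis (-0.27 ± 0.08). In Taxinine against BSA edgeR called 0 of the 19, with 3 at an unadjusted p under 0.05, and DESeq2 also called 0.

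**Figure D5:**
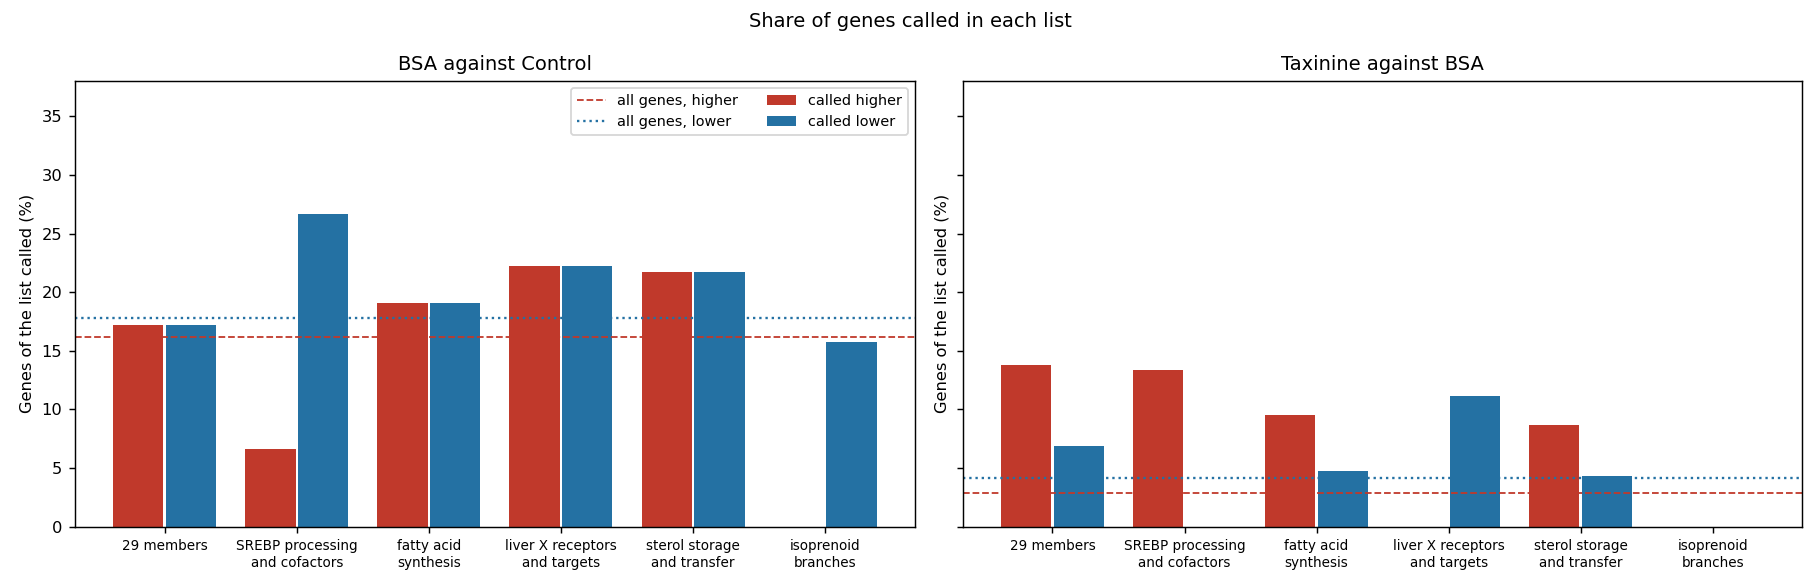
Share of the genes of each list (%, vertical axis from 0) called higher (red bars) or lower (blue bars) in BSA against Control and in Taxinine against BSA, with dashed and dotted lines at the shares over all genes (16.2% higher and 17.8% lower with antigen, 2.86% and 4.12% with taxinine). The 29 genes stand close to these lines with antigen and above them with taxinine, where isoprenoid genes had 0 calls. The lists were chosen with earlier results of these data known, and the lines include genes of low count. The wider lists were not counted with library totals alone.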

How the data were processed

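Reads were aligned with STAR 2.7.0f, and mm10, GRCm38 and limma 3.11 are also named, per the submitters' processing notes; the counting program, its strand setting and its annotation are not stated there, though the library kit keeps the strand, per the labels. The deposited counts are whole numbers with unequal library totals and were taken as unscaled, although the table's name speaks of TMM. A second deposited table holds log2 values, which match log2(CPM + 1) from plain totals to within 5e-05. From the counts, edgeR 4.0.16 (R 4.3.3) fitted 1 quasi-likelihood model over 9 libraries with TMM factors, no filter and no replicate term, with Benjamini-Hochberg adjustment over 15109 genes. Fold changes are log2 with SE; 95% intervals use the test's degrees of freedom. The fit was tested on simulated counts.

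Alternatives were other scaling, DESeq2 1.42.0, limma 3.58.1 on the log2 values, filterByExpr, pairwise fits, a replicate block and leaving out each library. Members and lists were chosen with earlier results of these data known. Genes called in BSA against Control or Taxinine against BSA are given in full, as are up to 3 genes of each wider list with the smallest p. A gene that this rule names in a wider list is not reported here. Exon lengths, overlaps and gene coordinates are from GENCODE M21 (GRCm38), and upstream sequences from RefSeq (GRCm38.p6), which had windows for 23 of the 29 genes; Abcg1, Fdft1, Fdps, Npc1, Sqle and Stard4 had none. Counting limits cover counting error only.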

Additional observations from a re-analysis of the deposited data

How the results depend on the processing

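With library totals alone, 2 genes were higher and 14 lower in BSA against Control, and 3 higher in Taxinine against Control; limma on the deposited log2 values, which use the same totals, gave 2, 13 and 3. In BSA against Control, signs then turned, at totals and limma respectively, for Sqle (-0.045, -0.042), Msmo1 (-0.22, -0.22), Srebf2 (-0.020, -0.018), Stard4 (-0.021, -0.022), Npc1 (-0.22, -0.22), Npc2 (-0.19, -0.19) and Abca1 (-0.13, -0.14), and in Taxinine against Control for Npc1 (-0.13, -0.13) and Npc2 (-0.16, -0.16). DESeq2 called 2 genes higher in Taxinine against BSA. Leaving out a library gave 4 to 5 higher and 4 to 5 lower in BSA against Control, 1 to 4 higher and 2 to 3 lower in Taxinine against BSA, and 7 to 8 higher and 5 to 6 lower in Taxinine against Control. A further 75 sign changes concerned values past the threshold in neither setting. The replicate block lost the call of Sqle with antigen (4 higher in place of 5) and changed no other call; same-numbered libraries did not deviate together (r from -0.108 to 0.0863 over 11671 genes). Fdps, with 1 to 10 counts, was removed by filterByExpr, and its low counts limit what can be said of it.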

Other observations

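Fdps, the farnesyl diphosphate synthase gene on which both the sterol and the prenylation branches depend, had 5, 6 and 4 counts in the Control libraries, 6, 5 and 1 in those with antigen and 4, 3 and 10 in those with taxinine. Its neighbours in the pathway, Idi1 and Fdft1, had at least 106 and 67 counts in every library. Of the distinct 101-base stretches in its annotated transcripts, 21.3% also occur in Gm3571, Gm43738 or Gm5873, and exons of Gm43738 on the same strand cover 26.7% of its exon bases. None of these 3 genes was analysed here, and how reads with several matches were counted is not stated. Its log2 fold change of 0.67 ± 0.60 in Taxinine against BSA spans a 95% interval from -0.55 to 1.88.

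Idi1 shares 21.8% of its stretches with Gm13502, Gm35570 and Gm48574. Rmc1, which overlaps 511 exon bases of Npc1 on the opposite strand, was called lower in BSA than in Control (39.4 to 32.2 CPM; -0.29 ± 0.07), while Npc1 gave 0.00 ± 0.05.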
